A study of Arabidopsis thaliana with 6 samples.

Results

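Receptor-like proteins (RLPs) are cell surface receptors of plants, and their transcripts were followed here in Arabidopsis thaliana plants mutant for gemin2. The members were the rows of the deposited gene table whose symbol is RLP and a number, with or without the prefix At. They came to 54 of 33602 loci, of which 44 had enough reads to be tested, 8 had reads but too few for a test, and 2 (RLP5 and RLP25) had no read in any library. The family members CLV2 and TMM, which RefSeq also lists as RLP10 and RLP17, carry other symbols in the table and are given with the genes that work beside RLPs. RNA came from whole plants of the Col ecotype, either wild type (WT) or gemin2 mutant, with 3 libraries per genotype. Seeds of both genotypes were kept 4 days at 4 °C in the dark, and the plants were harvested at the age of 9 days after growth on agarose medium at 22 °C without a dark period. The mutant's allele, the number of lines and the number of plants per library are not given in the labels. In RNA of whole plants, fewer cells of a type and less RNA per cell cannot be told apart.

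An RLP carries leucine-rich repeats outside the cell, a single span through the membrane and a short tail inside, and it has no kinase of its own. RLPs of immunity pair with the receptor kinase SOBIR1, and on binding a microbial molecule they recruit the co-receptor BAK1. Other family members act in growth: CLV2 and TMM work with receptor kinases in the meristem and in stomatal patterning, and RLP44 links the state of the cell wall to brassinosteroid signalling. GEMIN2, the mutated gene, belongs to the complex that loads Sm proteins onto spliceosomal small nuclear RNAs.

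Levels are given as CPM, the reads of a gene scaled to the library's total after TMM scaling, and as the mean ± SD of 3 libraries where an SD is named. Fold changes are log2 values of gemin2 over WT with their standard error (SE), and calls rest on the edgeR quasi-likelihood test with a Benjamini-Hochberg adjusted p under 0.05 over the 20762 genes tested. The libraries held 14049163 to 17217408 gene reads. GEMIN2 itself went from 16 ± 0.643 to 4.54 ± 0.0846 CPM (log2 fold change -1.82, SE 0.0968, edgeR adjusted p = 4.46e-09). The library WT B stood apart in this family and in some defence genes outside it. It was the highest WT library for 21 of the 44 tested RLPs (47.7%, against 31.4% of all genes tested). It lay at 1.5 times the mean of WT A and WT C or more for 7 of them (15.9%, against 1.62%). These 7 were RLP24 (10 times), RLP21 (3.16), RLP53 (2.91), RLP40 (2.27), RLP23 (1.67), RLP32 (1.61) and RLP35 (1.5). The defence marker PR1 had 1, 18 and 2 reads in WT A, B and C. Values without WT B follow where leaving it out changes a call, and its part in the other results was not tested.

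RLP transcripts changed in both directions, from a 6.42-fold increase of RLP33 to a 2.32-fold decrease of RLP6. Of the 44 tested RLPs, 9 were higher in gemin2 (20.5%, against 17.8% of all genes tested) and 6 were lower (13.6%, against 18.9%). The 15 called made up 34.1%, close to the 36.7% of all genes. A called change of at least 1 on the log2 scale was found in 5 (11.4%, against 3.12%): RLP33, RLP21 and RLP23 were higher, and RLP31 and RLP6 lower. The median log2 fold change was -0.03 (-0.001 over all genes tested) and the median absolute one 0.28 (0.18 over all). The tested RLPs lie lower in level than all genes tested, with a median log2 CPM of 2.36 against 4.04 and 37 of the 44 under the latter, and the part of low counts in the size of the changes was not tested. The libraries of the genotypes did not overlap for 19 RLPs (43.2%, against 48.1%), all 15 called ones among them. The summed level of the family was 390, 398 and 371 CPM in the WT libraries, against 375, 364 and 378 CPM in those of gemin2, so the totals overlapped. Without WT B, 11 RLPs were higher and 4 lower: RLP24 and RLP35 entered the calls, and RLP26 and RLP29 left them. RLP6, RLP12, RLP19, RLP27, RLP31, RLP33, RLP50 and RLP54 kept their call in all 12 other settings run.

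**Figure D1:**
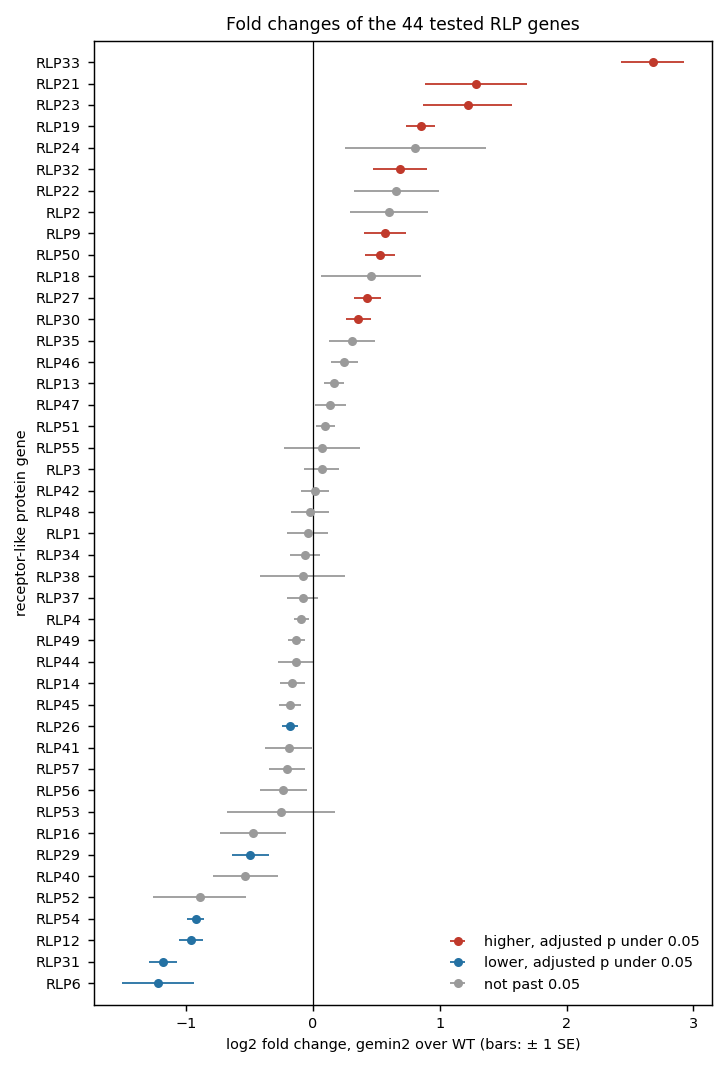
Log2 fold change of gemin2 over WT (x axis) for the 44 tested RLP genes, ordered by it (y axis); points are the edgeR estimates, bars ± 1 SE, and colours the call at an adjusted p of 0.05. RLP33 at 2.68 stands above every other member, and RLP31 and RLP6 lie lowest at -1.18 and -1.22.

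RLP33 (AT3G05660, chromosome 3, 1648843 to 1652001, minus strand, TAIR10) had the largest change. Its level was 0.491, 0.534 and 0.501 CPM in WT A, B and C, against 3.39, 3.01 and 3.57 CPM in the mutant libraries A, B and C. This order of libraries holds for all values that follow. The WT libraries lay close together and far under every mutant library. RLP33 rose 6.42-fold (log2 fold change 2.68, SE 0.248, edgeR adjusted p = 1.09e-06) and stayed between 2.63 and 2.75 without any single library. The reads behind it were few in WT, 7, 9 and 7 against 52, 52 and 58. Per kilobase of transcript, RLP33 went from 0.167 ± 0.0074 to 1.09 CPM, and in WT it ranked 45 of the 54 by this measure. Its neighbour RLP32 lies 269 bases away, and RLP32 is the receptor for bacterial translation initiation factor IF1. RLP32 (1645680 to 1648573, minus strand) had 1.96, 2.91 and 1.64 CPM in WT and 3.32, 4.11 and 3.26 CPM in gemin2. It rose too, by 0.69 (SE 0.214, edgeR adjusted p = 0.0194), with every mutant library above every WT library. That call was lost with DESeq2 (0.0634) and when WT A (0.0669), WT C (0.0888) or gemin2 B (0.0903) was left out. The coding sequences of the 2 genes match at 79.6% of 2545 aligned bases, and no stretch of 50 bases of RLP33 or RLP32 occurs at another locus.

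RLP19 (AT2G15080, chromosome 2, 6533687 to 6536995, plus strand), on another chromosome, was higher too. It had 15.8, 16.4 and 11.6 CPM in WT and 28.7, 27.7 and 22.8 CPM in gemin2, where the lowest mutant library lay above the highest WT library. RLP19 rose by 0.85 (SE 0.111, edgeR adjusted p = 3.17e-05), and the authors' deposited table also gives 0.85 for it, with a false discovery rate of 1.5e-11. Upstream of their gene starts, RLP19, RLP32 and RLP33 share a stretch of 12 bases, found by searching the 250 bases before the deposited start of each RLP after the values had been seen. The stretch begins 80 bases before the start of RLP19, 111 before RLP32 and 162 before RLP33. The search gave many stretches shared by at least 3 RLPs, many of them in RLP39 (not tested), RLP41 and RLP42 (both not called). This stretch was picked from them because its 3 genes were all higher. It is shown in capitals below, each within 60 bases of the gene's own strand. The coordinates are chr2:6533583-6533642, chr3:1648649-1648708 and chr3:1652128-1652187, and the sequence is that of the RefSeq genome TAIR10.1, whose bases at the deposited intron ends are GT and AG for 98.5% of all introns and for 54 of the 60 in RLP loci (90%).
RLP19: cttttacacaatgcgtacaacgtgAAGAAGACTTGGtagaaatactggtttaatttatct
RLP32: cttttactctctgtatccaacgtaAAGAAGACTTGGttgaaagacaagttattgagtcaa
RLP33: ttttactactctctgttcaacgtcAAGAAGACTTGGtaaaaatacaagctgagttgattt
In all, 6 of 32834 such windows hold the stretch. The other loci are AT1G51890 at 0.40 (SE 0.117, adjusted p = 0.0152), AT3G26020 at -0.09 (adjusted p = 0.366) and AT4G31615 at 0.64 (adjusted p = 0.167), all from the edgeR test. A match is a description of these windows and says nothing of a factor that binds there.

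Among the other RLPs with a described microbial ligand, RLP23 and RLP30 were higher and RLP1 and RLP42 did not pass. RLP23, which recognises a peptide of necrosis-inducing NLP proteins, had 6, 15 and 9 reads in WT against 33, 26 and 17 in gemin2. In CPM this was 0.421, 0.890 and 0.644 against 2.15, 1.5 and 1.05, with the lowest mutant library just above the highest WT library. RLP23 rose by 1.22 (SE 0.348, edgeR adjusted p = 0.0124), a call lost without WT A (0.0581) and without gemin2 A (0.0644). RLP23 overlaps another annotated locus, and the counting is not stated to use strand. RLP30, needed for the response to an elicitor of the fungus Sclerotinia, had 9.54, 8.66 and 8.01 CPM in WT and 12.1, 10.8 and 10.8 CPM in gemin2. It rose by 0.36 (SE 0.1, edgeR adjusted p = 0.0114; 0.0722 with DESeq2), and it too overlaps another locus.

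RLP42, which senses fungal endopolygalacturonases, was at 7.23, 7.30 and 6.72 CPM in WT and 6.90, 6.89 and 7.81 CPM in gemin2, so the genotypes overlapped. Its log2 fold change was 0.02, with an approximate 95% interval of -0.20 to 0.24 (edgeR adjusted p = 0.903). RLP1, which is required for sensing the Xanthomonas elicitor eMax, was at 4.14, 6.05 and 4.65 CPM in WT and 4.17, 4.98 and 5.35 CPM in gemin2 (log2 fold change -0.04, interval -0.36 to 0.28, adjusted p = 0.86). The resistance genes RLP3 (RFO2, against Fusarium) and RLP51 (SNC2) did not pass either. RLP3 had 4.42, 4.75 and 4.79 CPM in WT and 4.36, 5.03 and 5.23 CPM in gemin2, a log2 fold change of 0.07 (interval -0.20 to 0.34). RLP51 had 16.8, 17.1 and 18.8 CPM against 18.2, 20 and 18.1 CPM, a log2 fold change of 0.10 (interval -0.05 to 0.24). These intervals leave out a change of 1 on the log2 scale in either direction, but they do not cover reads shared between copies or loci. RLP42 has 37% of its 50-base stretches at another locus, and RLP3 overlaps another annotated locus.

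Of the RLPs tied to growth and to the cell wall, RLP12 was lower, and RLP2, RLP44 and RLP4 did not pass. RLP12 (AT1G71400, chromosome 1, 26909835 to 26912597, plus strand), which can stand in for CLV2 in transgenic tests, had 16.3, 14.9 and 17.2 CPM in WT and 8.73, 8.45 and 7.69 CPM in gemin2. All mutant libraries lay far under all WT libraries. RLP12 fell by 0.96 on the log2 scale (SE 0.0923, edgeR adjusted p = 1.59e-06), a 1.94-fold lower level, and the authors' deposited table gives -0.96. RLP2, which can do the same, was at 0.60 (interval 0.00 to 1.21, edgeR adjusted p = 0.139). RLP44 had 4.98, 4.98 and 5.94 CPM in WT and 4.23, 4.98 and 5.23 CPM in gemin2, with a log2 fold change of -0.13 (interval -0.41 to 0.15). RLP4, which has a malectin-like domain, had the highest level of the family per kilobase, 24.8 ± 1.45 CPM in WT, and a log2 fold change of -0.09 (edgeR adjusted p = 0.255).

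The remaining large decreases were in genes for which no role is stated here. RLP31 (AT3G05370, chromosome 3, 1536014 to 1538719, minus strand) had 15.7, 13.5 and 16.4 CPM in WT and 7.16, 5.67 and 7.26 CPM in gemin2. No mutant library reached the level of any WT library, and RLP31 was 2.27-fold lower (log2 fold change -1.18, SE 0.113, edgeR adjusted p = 1.49e-06). RLP54 (AT5G40170, chromosome 5, 16065091 to 16067574, minus strand) had 34.7, 33.8 and 32.2 CPM in WT and 16.6, 17.6 and 19.0 CPM in gemin2. It had the smallest adjusted p of the family, 1e-07 by edgeR, at a log2 fold change of -0.92 (SE 0.0668). RLP54 and RLP31 ranked 3 and 6 by WT level per kilobase (13.5 ± 0.506 and 5.63 ± 0.562 CPM), so decreases were found in members that are high in WT as well as in a low one. The low one was RLP6 (AT1G45616, chromosome 1, 17183550 to 17186534, minus strand), with 1.68, 1.48 and 1.43 CPM in WT and 0.521, 0.637 and 0.800 CPM in gemin2. RLP6 fell by 1.22 (SE 0.283, edgeR adjusted p = 0.00343), and no library overlapped between the genotypes.

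**Figure D2:**
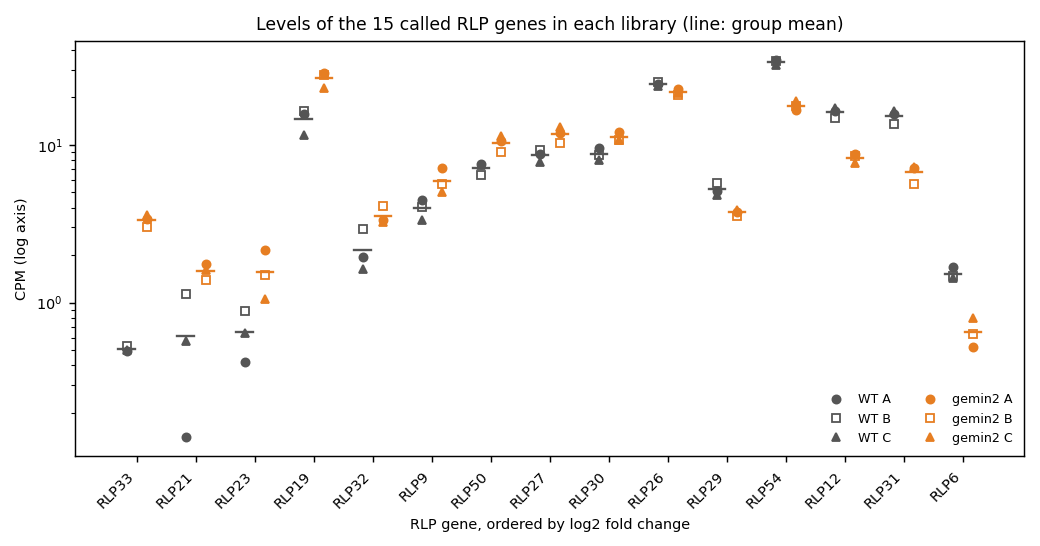
Level in CPM (y axis, log scale) of the 15 called RLP genes in each library (x axis, genes ordered by fold change); points are libraries, marked by letter, and lines are means of 3 libraries. For each of the 15 genes the grey WT points and the orange gemin2 points do not overlap; RLP21 in WT spreads most, from 0.140 to 1.13 CPM.

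The other called members changed less or rested on fewer reads. RLP21 (AT2G25470, chromosome 2, 10838420 to 10841881) had 2, 19 and 8 reads in WT against 27, 24 and 26 in gemin2, or 0.140, 1.13 and 0.572 CPM against 1.76, 1.39 and 1.60 CPM. WT B was the highest WT library and lay just under the mutant ones. RLP21 rose by 1.29 (SE 0.402, edgeR adjusted p = 0.02), by 2.13 without WT B, and lost its call without WT A (0.85, adjusted p = 0.0712), WT C (1.23, 0.0675) or gemin2 A (1.21, 0.0524). RLP50 and RLP27 rose by 0.53 (SE 0.117) and 0.43 (SE 0.108). RLP9 rose by 0.57 (SE 0.163), a call lost without WT C (0.0576) and without gemin2 A (0.0661). It was also lost with intron reads subtracted (0.33, edgeR adjusted p = 0.31). The gene count need not hold those reads, so that value does not show that intron reads made up the rise. RLP29 fell by 0.49 (SE 0.144) and RLP26 by 0.18 (SE 0.0642). The calls of both were lost with DESeq2 (0.0971 and 0.23) and without WT B (0.0713 and 0.135), that of RLP29 also without gemin2 B (0.052), and that of RLP26 without WT A (0.0737), gemin2 B (0.133) and gemin2 C (0.0904).

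The 29 tested RLPs that did not pass ranged from -0.89 (RLP52) to 0.81 (RLP24) on the log2 scale. RLP24 had 1, 24 and 3 reads in WT against 14, 22 and 17 in gemin2, and in CPM WT B lay above every mutant library while WT A and WT C lay under them all. Its value was 0.81 (SE 0.555, edgeR adjusted p = 0.276) with all libraries and 2.86 (adjusted p = 0.00137) without WT B. RLP40 had 99, 251 and 86 reads in WT against 84, 107 and 132 in gemin2, and its value of -0.53 (adjusted p = 0.122) became 0.01 without WT B and -0.75 (adjusted p = 0.0368) without WT C. RLP52, with 1.24 ± 0.351 CPM in WT and 0.689 ± 0.37 in gemin2, passed without WT C (-1.08, adjusted p = 0.0491) and without gemin2 A (-1.38, 0.0153). RLP37 had 7.86, 7.59 and 8.08 CPM in WT and 8.21, 6.31 and 7.75 CPM in gemin2 (-0.08). RLP22 was at 0.66. RLP53, at -0.25, turned to 0.51 without WT B. The others lay between -0.47 (RLP16) and 0.46 (RLP18): beside those named above they were RLP13, RLP14, RLP16, RLP18, RLP34, RLP35, RLP38, RLP41, RLP45 to RLP49 and RLP55 to RLP57. Of these, RLP13 passed without WT A (0.23, adjusted p = 0.0424), RLP35 without WT B (0.55, 0.0403) and RLP46 without gemin2 C (0.34, 0.0234), all by edgeR. Of the 8 with too few reads for a test (RLP7, RLP11, RLP15, RLP20, RLP28, RLP36, RLP39 and RLP43), RLP28 had 2 reads in WT against 10 in gemin2, a ratio of 4.61 with a 95% counting interval of 0.983 to 43.3.

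**Figure D3:**
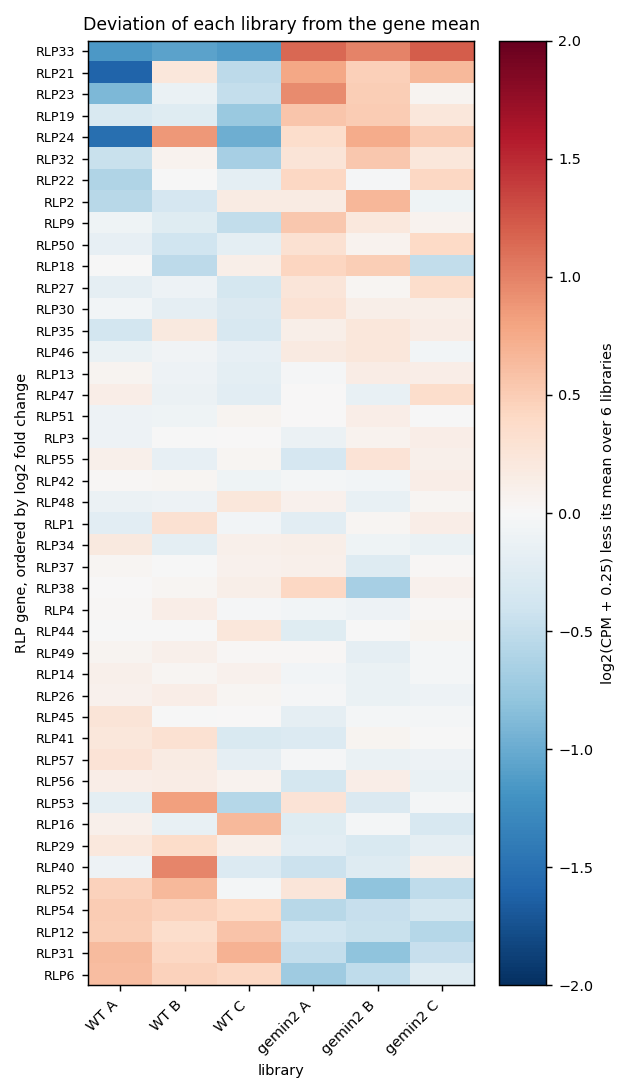
Deviation of each library (columns) from the gene's mean over the 6 libraries, in log2(CPM + 0.25) (colour), for the 44 tested RLP genes (rows, ordered by log2 fold change). Rows at the top turn from blue in WT to red in gemin2 and those at the bottom the other way; WT B departs from WT A and WT C in RLP24, RLP21, RLP53 and RLP40.

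Many RLP genes lie next to each other. With at most 10 kb between neighbours, 30 of the 54 fall into 11 runs, the largest of 5 genes (RLP24 to RLP28). Of the tested members, 10 of 24 in runs and 5 of 20 outside them were called, against 36.7% of all genes tested. The difference between members in and outside runs was not tested. Neighbours did not always move together. RLP30 and RLP31 lie 2725 bases apart, match at 76.3% of aligned coding bases, and went in opposite directions (0.36 and -1.18). RLP26 and RLP27, 1084 bases apart at 81.0% identity, did so too (-0.18 and 0.43), with the call of RLP26 as uncertain as given above. RLP32 and RLP33 were both higher. RLP39 to RLP42, which match their neighbours at 89.9% to 91.5%, gave no call among the 3 tested. In all, 10 members have at least 10% of their 50-base stretches at another locus, so that reads could be split between copies: RLP34, RLP35, RLP39 to RLP42, RLP47 to RLP49 and RLP53. None of these is among the 15 called. Of the called members, RLP23, RLP26, RLP30 and RLP50 overlap another annotated locus and are uncertain for that reason. Without the 10 members that overlap another locus, 6 RLPs were higher and 5 lower.

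**Figure D4:**
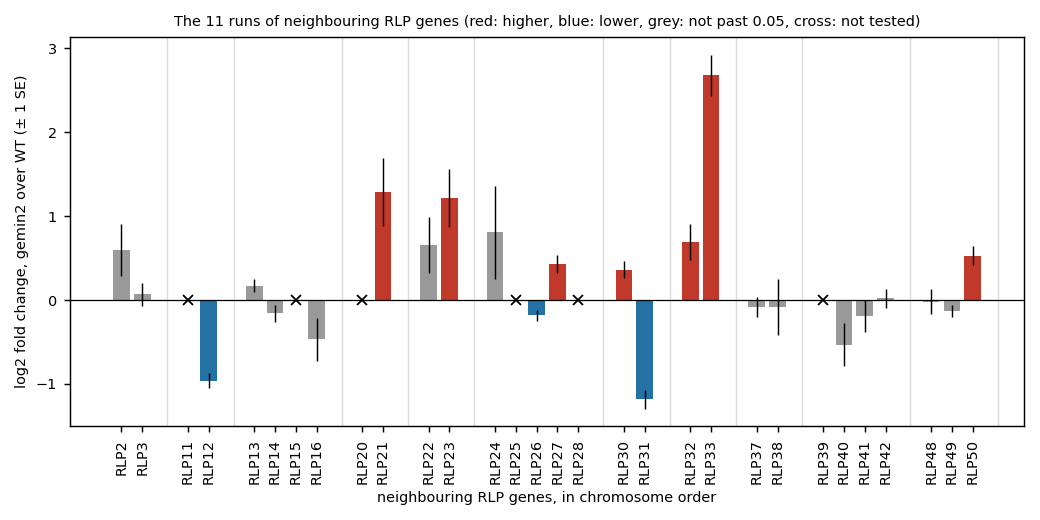
Log2 fold change of gemin2 over WT (y axis, bars, with ± 1 SE) for the 30 RLP genes that lie in the 11 runs of neighbours (x axis, chromosome order, runs divided by lines); colour gives the call and a cross marks genes not tested. RLP30 and RLP31 point in opposite directions, RLP32 and RLP33 in the same.

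In gene structure, 52 members are annotated as protein coding, with 218 to 1083 residues (median 823), and RLP18 and RLP49 as transcribed pseudogenes. The coding sequence lies in a single part in 35 of the 52. The most frequent of the motifs searched in the 250 bases upstream was the W-box core TTGAC, which WRKY transcription factors bind. It is also the shortest of them and the most frequent over all loci. Windows of some neighbours, such as RLP39 and RLP41, are nearly alike, so the windows are not independent. On either strand (TTGAC or GTCAA) it was present in 43 of 54 RLP windows (79.6%), against 14518 of 32834 windows of all loci (44.2%). The longer W-box, TTGACC or TTGACT, which contains the core, was present in 38 (70.4%, against 28.3%). The evening element AAATATCT was present in 3 (5.56%, against 4.36%) and the G-box CACGTG in 2 (3.7%, against 6.77%). By direction, the W-box core was present in 7 of the 9 higher ones, 5 of the 6 lower ones, 22 of the 29 not past the threshold and 9 of the 10 not tested. The windows before RLP31 (chr3:1538720-1538969) and RLP33 (chr3:1652002-1652251), read on the minus strand of each gene, are given as examples of a lower and a higher member, with the core in capitals.
RLP31: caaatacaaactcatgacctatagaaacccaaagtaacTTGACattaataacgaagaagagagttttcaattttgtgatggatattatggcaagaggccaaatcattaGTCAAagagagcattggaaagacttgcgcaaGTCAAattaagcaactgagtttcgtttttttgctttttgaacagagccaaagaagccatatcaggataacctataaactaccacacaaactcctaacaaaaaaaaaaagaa
RLP33: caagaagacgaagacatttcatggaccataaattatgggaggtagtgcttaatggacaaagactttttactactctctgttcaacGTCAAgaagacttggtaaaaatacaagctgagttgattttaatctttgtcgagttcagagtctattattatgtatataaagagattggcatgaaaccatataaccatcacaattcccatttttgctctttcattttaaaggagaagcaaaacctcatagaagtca
The window of RLP31 holds the core 3 times and that of RLP33 once.

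Few RLP bins and introns could be tested for splicing, and none of these passed. The splicing table has 5 bins in 3 members, and 1 bin had enough reads: the retained-intron bin E003 of RLP47 (chromosome 4, 8006570 to 8006851, minus strand), a stretch of 282 bases. It had 13, 13 and 3 reads in WT against 18, 16 and 32 in gemin2, or 4.43 ± 2.34 against 8.63 ± 1.83 reads per 100 gene reads. Relative to its gene the log2 change was 0.92 (SE 0.321, edgeR p = 0.00684, adjusted p = 0.104, while 4.71% of all bins tested passed), and the authors' deposited table gives 1.10 with a false discovery rate of 0.0569. RLP47 itself was at 0.14 (edgeR adjusted p = 0.38). The ends of the bin read as follows, with the first and last intron bases in capitals.
RLP47 E003, 5′ end: cagttgaaagGTatgctccc
RLP47 E003, 3′ end: tggttatttggatgtttcAGggattaattt
The bin is a multiple of 3 bases long and holds 0 in-frame stop codons, so the reading frame runs on through it. Of 60 introns in 12 members in the intron table, 23 had no read, 3 had enough reads for a test and 0 passed the edgeR test at an adjusted p of 0.05, against 9.40% of all introns tested. An unadjusted p under 0.05 was found for 1 of them, RLP45 I001. RLP45 overlaps another annotated locus, and the counting is not stated to use strand, so reads counted for it may belong to that locus. Intron I001 had 22.7 ± 3.72 reads per 100 gene reads in WT and 31.4 ± 3.3 in gemin2. Its log2 change relative to the gene was 0.46 (SE 0.168, edgeR adjusted p = 0.104). With intron reads taken off, RLP45 was at -0.35 (edgeR adjusted p = 0.0126) as a gene, instead of -0.18 (0.128). The gene counts do not hold all intron reads, however: RLP20 in gemin2 A has a gene count of 1 and 2 reads in its intron I001. This setting can therefore take off reads that were never counted, and its values are not corrected gene levels. RLP9 I005, of 3083 bases, held 49.5 ± 4.48 and 58.8 ± 5.62 reads per 100 gene reads (0.24, adjusted p = 0.487), and RLP13 I002 was at -0.15 (adjusted p = 0.872). The intron table used here ends at 65535 introns, so chromosomes 4 and 5 and part of 3 were not analysed here.

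Most genes through which RLPs signal did not pass the test. Of 23 genes of co-receptors and signalling, 3 were higher, 1 was lower and 19 did not pass (17.4% called, against 36.7% of all genes; median 0.06). SOBIR1, the constant partner of immune RLPs, was at 0.09 (SE 0.0859, adjusted p = 0.467) and BAK1 at 0.10 (SE 0.0551, adjusted p = 0.169), both by edgeR. EDS1 and PAD4, through which RLP23 acts, were at 0.12 and 0.00. ADR1, the helper immune receptor that works with them, rose from 10.3 ± 1.32 to 15.3 ± 1.65 CPM (log2 fold change 0.57, SE 0.105, edgeR adjusted p = 0.000621). BIR1, a kinase that holds BAK1 in check, rose by 0.33 (SE 0.0642), and the cytoplasmic kinase PBL1 fell by 0.24 (SE 0.0628, adjusted p = 0.00833; 0.0693 with DESeq2). SAG101 was the third higher gene, at 0.27 (edgeR adjusted p = 0.0387; 0.199 with DESeq2), a call also lost when WT A, WT C, gemin2 A or gemin2 B was left out.

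Of 15 tested genes of the developmental modules, 6 were higher and 0 lower. Over all genes tested, 17.8% were higher and 18.9% lower. In both directions together, 40% of the list was called, near the 36.7% of all genes, with a median of 0.14. The list was chosen with earlier results of these data known. The 6 higher genes are the receptor kinases ER (0.31, SE 0.0501), CLV1 (0.25, SE 0.0496), ERL1 (0.47) and BRI1 (0.14), the RLP TMM (0.27) and the stomatal peptide EPF2 (0.61). The RLP CLV2 was at -0.22 (edgeR adjusted p = 0.13). With DESeq2, TMM (0.0673), EPF2 (0.0625) and BRI1 (0.0792) did not pass. BRI1 passed by edgeR in 1 of the 6 fits that left out a library, and TMM and EPF2 in 5 each. ERL2, at 0.16, passed without WT B (0.24, edgeR adjusted p = 0.0239). Pattern recognition receptors outside the family gave 2 higher and 4 lower of 16 (37.5% called, against 36.7% of all genes; median -0.04). RLK7 and LYM3 rose by 0.18 and 0.27, and LYM1 and LYM2, which bind peptidoglycan and chitin, fell by 0.31 and 0.34. CERK1 (-0.25) and MIK2 (-0.17) were the other lower ones. LYM3 (0.0662), CERK1 (0.0538) and MIK2 (0.11) did not pass with DESeq2, nor did RLK7 without gemin2 A (edgeR adjusted p = 0.0649). Without WT B, MIK2 did not pass (0.19) and WAK1 did (0.55, edgeR adjusted p = 0.0116; 0.36 and 0.0612 with all libraries).

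Of 17 tested genes in a list of pattern recognition responses and other defence markers, 8 were higher and 0 lower. Over all genes tested, 17.8% were higher and 18.9% lower. In both directions together, 47.1% of the list was called, against 36.7% of all genes, with a median of 0.47. This list, too, was chosen with earlier results of these data known. CYP71A13, an enzyme of camalexin synthesis, rose from 25.7 ± 3.9 to 50.6 ± 11.7 CPM (0.97, SE 0.136, edgeR adjusted p = 5.93e-05). The defensin PDF1.2A had 2, 10 and 0 reads in WT against 118, 91 and 33 in gemin2 (4.19, SE 0.601, edgeR adjusted p = 7.23e-05; 5.98 without WT B). Close copies of this defensin gene exist, so its reads may be shared. PR1 was at 1.70 with all libraries (edgeR adjusted p = 0.0154, but 0.196 with DESeq2) and at 3.74 without WT B. Its edgeR call was lost without WT A (1.23, adjusted p = 0.06) and without WT C (1.31, 0.0731). The other higher ones were MYB51 (0.86), CYP81F2 (0.81), PR2 (0.96), WRKY29 (0.47) and ICS1 (0.24). The calls of the last 3 were lost with DESeq2 (0.106, 0.0619 and 0.153). By edgeR, PR2 also lost its call without WT A (adjusted p = 0.0777), WT C (0.164) or gemin2 B (0.337, at a log2 fold change of 0.45). WRKY29 lost it without gemin2 B (edgeR adjusted p = 0.0528). Which genes of this list were called depended on WT B. Without it, PAD3 (0.79, adjusted p = 0.000276), NHL10 (1.40, 0.0165), PHI-1 (1.01, 0.0314) and WRKY33 (0.52, 0.015) passed by edgeR, and PR2 (0.0644) and ICS1 (0.0815) did not. The early marker FRK1 was at -0.16 (edgeR adjusted p = 0.782) and WRKY53 at -0.01 (adjusted p = 0.928).

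**Figure D5:**
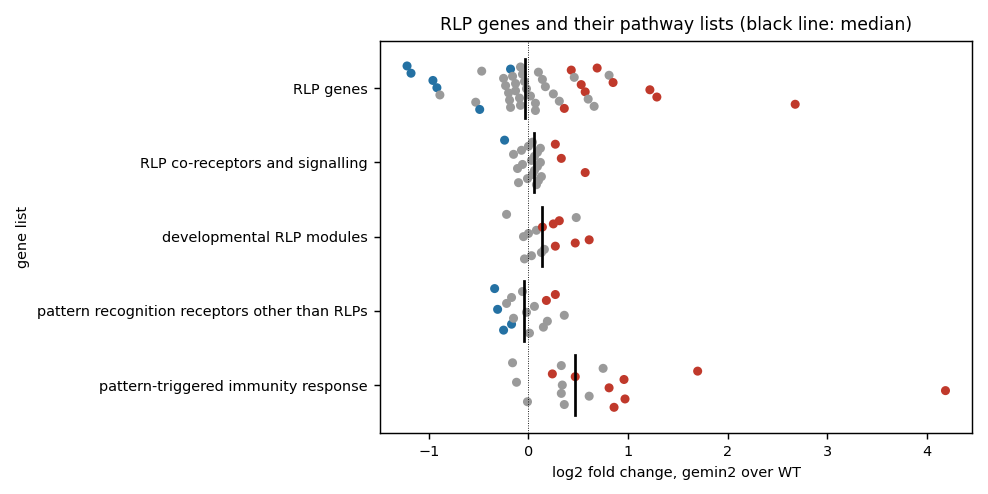
Log2 fold change of gemin2 over WT (x axis) of each tested gene in the RLP family and in 4 lists of genes that act beside it (y axis); points are genes, coloured red where higher, blue where lower and grey where not past an adjusted p of 0.05, and black lines are medians. The medians are -0.03, 0.06, 0.14, -0.04 and 0.47 from top to bottom.

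Organ markers moved between the genotypes as well. Of those tested, 66.7% of the shoot, 100% of the root and 25% of the guard cell markers were called, against 36.7% of all genes. The flower and meristem lists had 1 tested gene each. The 3 shoot markers summed to 28146 to 30091 CPM in the WT libraries and 31987 to 34152 in gemin2, with LHCB1.3 higher, CA1 lower and RBCS1A not past the threshold. LHCB1.3 went from 11200 to 16900 CPM, CA1 from 3990 to 2570 and RBCS1A from 13900 to 13500. This sum therefore does not stand for all shoot markers. The 5 root markers summed to 431 to 470 CPM in WT and 325 to 377 in gemin2, with PHO1 and SCR higher, IRT1 and RHD6 lower and NRT2.1 not tested. Most of that sum was IRT1, which went from 328 to 205 CPM. PHO1 went from 80 to 94.8 CPM, SCR from 42.5 to 49.3 and RHD6 from 2.59 to 1.22, so the sum does not stand for all root markers. The 4 guard cell markers summed to 53.7 to 54.8 CPM and 47.9 to 56.2 CPM, with KAT1 lower (adjusted p = 0.0193 by edgeR, 0.074 with DESeq2) and 3 not past. The meristem marker STM rose from 1.46 ± 0.336 to 3.26 ± 1.16 CPM, whereas WUS had 1 read in all. The flower markers AP3 and PI summed to 0.771 to 0.93 CPM in WT and 0.174 to 0.677 in gemin2; PI did not pass and AP3 was not tested. The part of organ proportions in the RLP changes was not tested.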

How the data were processed

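The authors deposited raw counts of reads, whole numbers that are not normalised, for genes, splicing bins and introns, and tables of their own comparison with log2 fold changes and adjusted p-values (false discovery rates), per the file headers. The submitters' processing notes name the build TAIR10 and edgeR 3.4.2 (in R 3.0.2) beside TopHat2 2.0.9. Not given in the sources used here are the counter, its strand setting and how it treated reads with several matches. No strand-marking step is named in the labels' protocols.

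The columns carry letters A to C that no label ties to a replicate number, so each counts only as one of its genotype, and 0 columns of sample values were left out. The labels do not say whether libraries came from separate cultures. The p-values therefore cover the spread among these samples only, and that spread may be technical.

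Gene counts were tested over the whole table in R 4.3.3 with edgeR 4.0.16: filterByExpr at a minimum count of 10, TMM, and the two-sided quasi-likelihood F test of gemin2 against WT with Benjamini-Hochberg adjustment. The SE is the log2 fold change over the square root of F, and the intervals named 95% are the value ± 1.96 SE. They are approximate and narrower than the F test allows. That of RLP45, for example, is -0.35 to -0.01 at an unadjusted edgeR p of 0.0613. Bins and introns used the log of the gene count plus 0.5 as offset, a minimum count of 5, and genes with a mean of at least 20 reads. Alternatives were DESeq2 1.42.0 and other filters and scalings, and each library was left out in turn. Taking off intron reads was chosen after seeing the data, and the gene counts do not hold all of these reads. The fits were tested on simulated data.

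Windows of 250 bases before the deposited gene starts were read from the RefSeq genome TAIR10.1. The interval of the RLP28 ratio covers counting error only.

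The members and lists were chosen with earlier results of these data known. GEMIN2 and every RLP past the threshold were named. RLPs with an absolute log2 fold change of at least 1, or with a known ligand or partner, were given by library. From the called genes of each list, up to 2 higher and 2 lower ones were named by the ratio of change to SE, and the other list genes were named for their roles or counts after values were seen.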

Additional observations from a re-analysis of the deposited data

How the results depend on the processing

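No paired analysis was possible because the columns carry letters that no label ties to the replicate numbers of the samples. The counts of RLPs were 9 higher and 6 lower, 7 and 4 with DESeq2, 8 and 7 with intron reads taken off, and 9 and 7 without a filter on low counts. Without single libraries they ranged from 6 to 11 higher and from 4 to 8 lower. Over all genes, 7626 were called, 5140 with DESeq2 and 6281 to 6817 without single libraries. Of the list genes 24 were called, 12 with DESeq2 and 18 to 27 without single libraries. The count of called introns in RLP loci was 0, and 1 without the gene offset (RLP9 I005, 0.80, adjusted p = 0.0171), since the gene's own rise then counts. RLP13 I002, far from the threshold, was at 0.01 without the offset and between -0.42 and 0.23 without single libraries, and the cause was not tested. Bins gave 0 calls in every setting run. Of the alternative values of the 15 called RLPs and of the tested bin and introns, 187 kept direction and call, 21 lost the call, 1 gained one and 2 changed sign. Among RLPs not past the threshold, RLP13, RLP24, RLP35, RLP40, RLP45, RLP46 and RLP52 passed in at least 1 setting, and RLP40 and RLP53 were among those that changed sign without a library. Depth limits RLPs with few reads: RLP23 had too few for a test at a minimum count of 20.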

Other observations

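Another of the many stretches of 12 bases from the same search was also picked after the values had been seen. It occurs before RLP18, RLP19, RLP33, RLP43 and RLP53 and in 14 of 32834 windows in all. RLP19 and RLP33 were higher, RLP18 and RLP53 did not pass (0.46 and -0.25), and RLP43 was not tested, with 13 reads in WT and 28 in gemin2. The stretch, in capitals, begins 38 bases before the start of RLP19 and 95 before that of RLP33 (chr2:6533625-6533684, plus strand, and chr3:1652061-1652120, minus strand).
RLP19: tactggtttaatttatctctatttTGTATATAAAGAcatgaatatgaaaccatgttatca
RLP33: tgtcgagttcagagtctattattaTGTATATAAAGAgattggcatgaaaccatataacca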
